A study of Homo sapiens with 6 samples.

Results

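The DDX and DHX genes encode RNA helicases of the DEAD-box and DEAH-box families. They were taken as every gene symbol made of DDX or DHX, a number and at most 1 closing letter, without the Y-linked member. This rule found 51 of the 15832 gene symbols measured, 35 DDX and 16 DHX. Gene expression had been measured by RNA sequencing in AsPC-1 cells, an established human pancreatic cancer line. The cells had received an siRNA against VCPIP1 (siVCPIP1, 3 libraries) or a control siRNA (siControl, 3 libraries), and RNA was taken 48 h after transfection. All 6 libraries are of this 1 cell line, with no other agent or allele named in the labels. Whether the replicates are separate cultures is not stated, so the spread behind each p-value may be technical.

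RNA helicases use ATP to open RNA duplexes or to strip proteins from RNA. DEAD-box enzymes pry short duplexes apart locally, whereas most DEAH-box enzymes move along a strand and pull on it from outside the duplex. Named members act at nearly every step of an RNA's life, in splicing, export, ribosome assembly, translation, decay and the sensing of viral RNA. Both families take their names from a short stretch in the ATPase core, motif II, which reads Asp-Glu-Ala-Asp or Asp-Glu-Ala-His in the founding enzymes.

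The coding stretch around motif II shows what the members share and how they differ in base composition. Each line gives 20 codons of 1 transcript per gene from GENCODE 29 (GRCh38), 5′ to 3′ in the sense of the mRNA, with the 4 motif II codons in capitals. The first 4 genes are those with higher TPM in siVCPIP1 libraries, and the last 4 are among those with the deepest falls.
DDX49: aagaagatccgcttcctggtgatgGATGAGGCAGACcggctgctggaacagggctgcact
DDX56: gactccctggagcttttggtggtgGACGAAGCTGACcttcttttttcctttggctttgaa
DDX41: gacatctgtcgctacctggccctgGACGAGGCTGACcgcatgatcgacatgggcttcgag
DHX34: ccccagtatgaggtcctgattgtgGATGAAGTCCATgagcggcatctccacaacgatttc
DDX21: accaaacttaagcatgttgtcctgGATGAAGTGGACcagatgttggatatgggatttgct
DDX18: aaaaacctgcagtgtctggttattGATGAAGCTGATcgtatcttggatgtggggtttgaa
DDX5: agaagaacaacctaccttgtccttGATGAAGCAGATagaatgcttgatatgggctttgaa
DHX15: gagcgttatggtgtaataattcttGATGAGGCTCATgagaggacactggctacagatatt

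The stretch of DDX49 lies at chr19:18921947-18922367 on the plus strand and crosses an intron. Those of DDX56 (chr7:44572597-44572656, minus), DDX41 (chr5:177513718-177513777, minus) and DHX34 (chr19:47355144-47355203, plus) each lie within 1 coding exon. The same holds for DDX21 (chr10:68967104-68967163, plus), DDX18 (chr2:117822168-117822227, plus), DDX5 (chr17:64503221-64503280, minus) and DHX15 (chr4:24556299-24556358, minus). DDX18 and DDX41 spell the same 4 residues with partly different codons. G or C stood at the last base of 18 of the 20 codons in DDX41, 16 in DDX49, 13 in DHX34 and 11 in DDX56. The counts were 10 in DDX21, 8 in DDX18, 6 in DDX5 and 5 in DHX15. These genes were picked by their calls, and over all members the count did not separate the calls. DHX38 and DDX27, both lower, had 17, and DDX39B, not called, had 9. DDX19A, lower, and DDX19B, not called, had the same stretch. Motif II itself varied over the families, and 25 tested members carried DEAD and 9 carried DEAH. DDX21 and DDX50 carried DEVD, DDX39A and DDX39B DECD, and the antiviral DDX58 and DHX58 DECH.

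Values are TPM, a length-scaled share of a library's transcripts that the authors computed. A fall in TPM is thus a fall in a gene's share, and in bulk samples fewer cells with a transcript and less of it per cell cannot be told apart. Read depth is unknown, and only the number of libraries limits the precision that can be stated. Differences are of log2(TPM + 1), siVCPIP1 minus siControl, and understate changes of genes near 1 TPM. A total of 10966 genes averaged 1 TPM or more across the libraries and were tested with limma, at a threshold of 0.05 on the adjusted p.

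The libraries of both groups differed across the whole transcriptome. The median TPM over all genes was 1.26, 1.24 and 2.26 in siVCPIP1 libraries, against 6.70, 7.44 and 6.18 in siControl libraries. Genes with a transcript GC content under 45% held 4.59% ± 1.15 of all TPM in siVCPIP1 and 14.2% ± 1.07 in siControl (SD, n = 3 each). VCPIP1 itself had 0.12, 0.11 and 0.27 TPM in siVCPIP1 libraries, against 2.93, 3.06 and 2.24 TPM in siControl libraries. Its log2 difference was -1.68 ± 0.13 (SE, limma adjusted p = 2e-05), and the call held in all but 1 of the settings in which it was tested. After each library's trend on GC content and length was removed, the difference was 0.27 (limma adjusted p = 0.0628) with a pseudocount of 1 TPM and -0.55 (limma adjusted p = 0.0163) with 0.1 TPM. Of the epithelial markers, 4 of 8 tested were higher and 4 lower in siVCPIP1, with summed TPM of 21088 to 23841 in siVCPIP1 and 13935 to 16059 in siControl. KRT8, KRT18, KRT19 and ELF3 were the higher ones, and EPCAM, CDH1, CEACAM6 and MUC1 the lower ones. PTPRC, the pan-leukocyte marker, reached at most 0.66 TPM, and the highest fibroblast or endothelial marker 1.27 TPM. The leukocyte list summed to 122.0 to 159.2 TPM in siVCPIP1 and 144.5 to 150.1 TPM in siControl, nearly all of it from CD68, a lysosomal protein also made by other cells, and neither CD68 nor LYZ was called. The part of these library differences in the results was not tested.

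siVCPIP1 libraries had lower TPM for most helicase genes. Of the 50 members tested, 36 were lower and 4 higher at the threshold, and 10 were not called. Among all genes tested 66% were lower and 15% higher, so the members' shares of 72% and 8% stand near that background. The median log2 difference was -1.45 over the members tested, against -1.12 over all genes, and the members ran from -3.93 for DHX15 to 1.04 for DDX49. The siVCPIP1 mean was 26.6% of the siControl mean at the median, and under 10% for 11 genes, measures that were not taken over all genes. By family, 25 DDX genes were lower and 3 higher of 34 tested, and 11 DHX genes were lower and 1 higher of 16 tested. DDX25, a testis helicase, was left out of the test with 0.08, 0.03 and 0.15 TPM in siVCPIP1 libraries and 0.05, 0.16 and 0.16 TPM in siControl libraries.

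**Figure D1:**
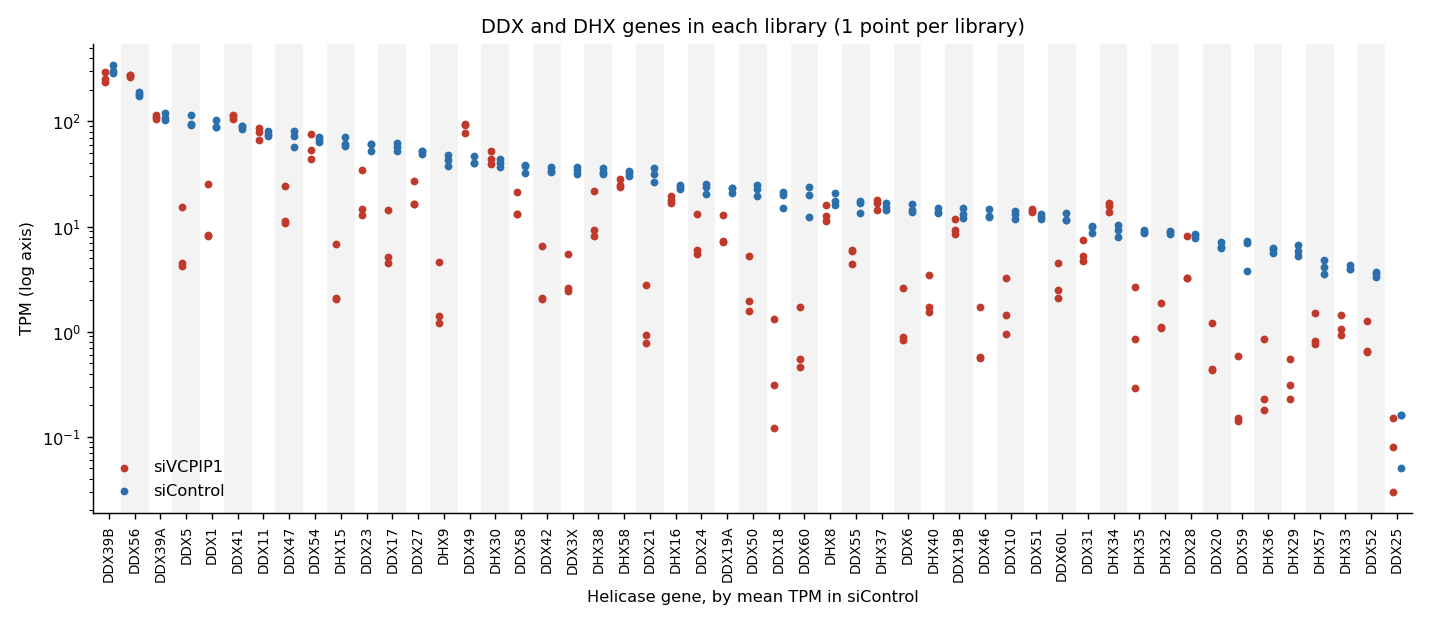
TPM of each of the 51 helicase genes in each library on a log axis, siVCPIP1 in red and siControl in blue, with genes ordered by their siControl mean. Most red points lie below the blue ones, while DDX56, DDX41, DDX49 and DHX34 have red points above the blue ones and DDX25 lies near 0 in both groups.

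The values of the groups did not overlap for 42 of 50 members (84%), against 86% of all genes tested. Within siVCPIP1, replicate 3 had the highest TPM for 46 of 50 members, and for 37 it lay between the other siVCPIP1 libraries and every siControl library. These counts were not taken over all genes, whose median TPM was also highest in replicate 3 among siVCPIP1 libraries. Without that library 41 members were lower and 4 higher, against 70.9% and 16.9% of all genes. The added calls were DHX8, DDX19B, DHX58, DDX54 and DDX39B, all lower. The calls of DDX28, DHX16 and DDX41 were lost in 5 of the 6 fits that left out 1 library, and that of DDX31 in 4.

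**Figure D2:**
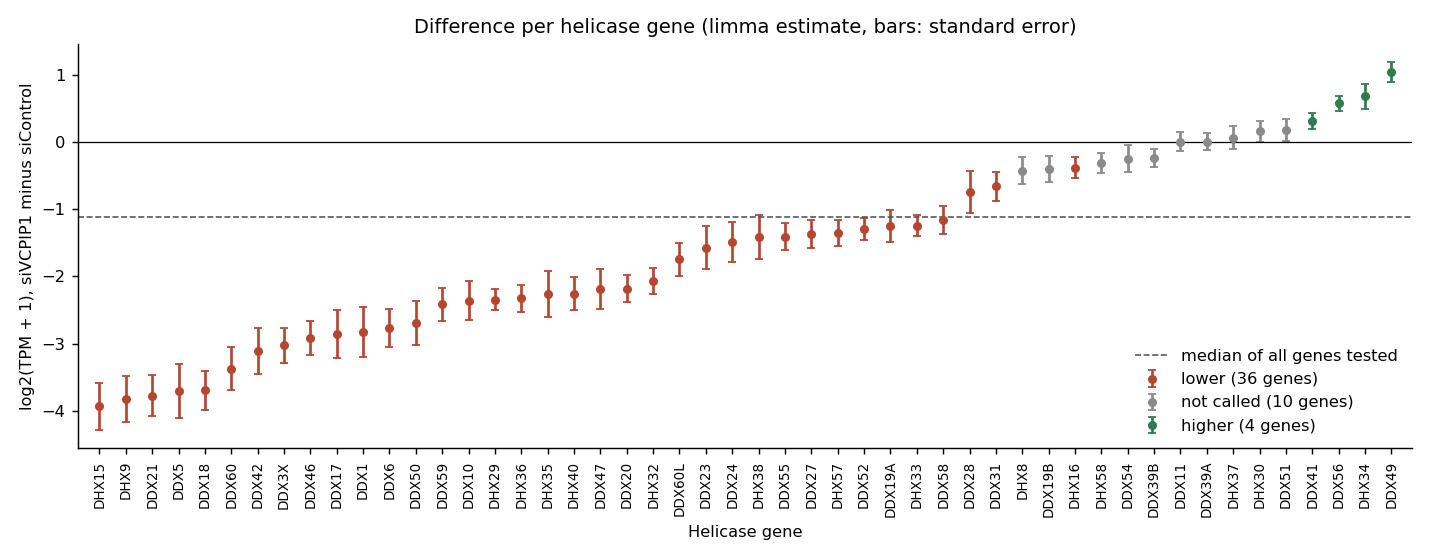
Difference in log2(TPM + 1), siVCPIP1 minus siControl, for the 50 helicase genes tested, with bars for the limma standard error and a dashed line at the median of all genes tested, -1.12. The genes called lower lie between -3.93 for DHX15 and -0.38 for DHX16, and the 4 called higher lie between 0.31 for DDX41 and 1.04 for DDX49.

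The split of calls depended on how the libraries were put on 1 scale. Scaling by the median of ratios moved the median of all genes to -0.02, quantile normalization to 0.04, and the correction for transcript GC content and length to 0.06. With median-of-ratios scaling 26 members were lower and 16 higher, against 42.7% and 42.3% of all genes. With quantile normalization 24 were lower and 14 higher, against 38.8% and 42.2%. After the GC and length correction 19 were lower and 17 higher, against 31.8% and 37.2%. The corrected counts start from GENCODE 29 transcripts, found for 10710 of the 10966 genes. A set of 15 members was lower in TPM as deposited and under all 3 of these scalings: DHX15, DHX9, DDX21, DDX5, DDX18, DDX60, DDX42, DDX3X, DDX46, DDX17, DDX1, DDX6, DDX50, DHX35 and DDX20. Of these, 13 were lower under every setting in which they were tested, and DDX1 and DDX50 lost the call in the correction with a pseudocount of 0.1. DDX20, 1 of the 13, was not tested with a minimum of 5 TPM. DDX41, DDX56, DHX34 and DDX49 were higher in all 4. The share of all genes that kept 1 call across these fits was not computed, so these sets cannot be set against a background. Of the other lower members, DDX31 and DHX16 turned to higher with median-of-ratios scaling, and DDX28, DDX31 and DHX16 with quantile normalization. DDX60L, DDX55, DHX57, DDX52, DDX58 and DDX31 did so after the correction, and a further 8, 9 and 11 lower calls were lost under these 3 scalings in turn.

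Among the helicases of pre-mRNA splicing, 7 of 9 were lower in siVCPIP1, DDX41 was higher and DHX8 was not called, with a median log2 difference of -1.57. These enzymes rebuild and take apart the spliceosome around each intron. With median-of-ratios scaling 4 were lower and 3 higher, with quantile normalization 5 and 3, and after the GC and length correction 6 and 2. For this and the later role groups, 66% of all genes were lower and 15% higher as deposited. Under the 3 scalings in that order, the shares of all genes were 42.7% lower and 42.3% higher, 38.8% and 42.2%, and 31.8% and 37.2%. DHX15, which releases the excised intron from the spent spliceosome, had 2.09, 2.06 and 6.76 TPM in siVCPIP1 libraries, against 57.8, 70.9 and 61.1 TPM in siControl libraries. Every siVCPIP1 library was far below every siControl library, and the siVCPIP1 mean was 5.75% of the siControl mean. Its log2 difference was -3.93 ± 0.35 (SE, limma adjusted p = 2.06e-05). DDX42, a partner of the U2 particle that marks the branch site, had 2.08, 2.05 and 6.54 TPM in siVCPIP1 libraries and 34.0, 37.0 and 33.1 TPM in siControl libraries. The groups were clearly apart, with a log2 difference of -3.11 ± 0.34 (SE, limma adjusted p = 4.33e-05).

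DDX46, the human counterpart of yeast Prp5 that acts with the U2 particle, averaged 0.95 ± 0.67 TPM in siVCPIP1 and 13.2 ± 1.27 TPM in siControl (SD, n = 3 each). DDX23, a component of the U5 particle, kept more of its level, with 20.7 ± 11.9 TPM in siVCPIP1 and 58.0 ± 5.40 TPM in siControl. The helicases of the catalytic steps were DHX16, with 18.0 ± 1.32 TPM in siVCPIP1 and 23.8 ± 1.20 TPM in siControl, and DHX38, with 13.04 ± 7.54 TPM in siVCPIP1 and 33.3 ± 2.28 TPM in siControl. DHX8, which frees the spliced mRNA, was not called, at 13.2 ± 2.35 TPM in siVCPIP1 and 18.1 ± 2.67 TPM in siControl, and was higher under each of the 3 scalings, by 0.85 to 0.92. DDX41, a spliceosomal helicase mutated in inherited myeloid neoplasms, had 111.8, 104.6 and 114.0 TPM in siVCPIP1 libraries, against 91.1, 84.8 and 89.4 TPM in siControl libraries. The groups did not overlap, and the log2 difference was 0.31 ± 0.12 (SE, limma adjusted p = 0.0371). Of the libraries left out in turn, only the fit without siVCPIP1 replicate 3 kept that call.

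Of the mRNA export helicases, DDX19A was lower, none was higher (66% and 15% of all genes), and 3 of the 4 tested were not called. Their median log2 difference was -0.32. DDX39A and DDX39B load the TREX export complex onto mRNA, and DDX19A and DDX19B release mRNA on the outer face of the nuclear pore. None was lower under the 3 scalings, and 3 were higher with median-of-ratios scaling, 1 with quantile normalization and 2 after the GC and length correction. DDX39B had the highest siControl mean of all members, with 254.4, 237.8 and 297.7 TPM in siVCPIP1 libraries and 299.2, 287.7 and 341.1 TPM in siControl libraries. The groups overlapped, and the log2 difference of -0.23 ± 0.13 was not called (limma adjusted p = 0.133). With median-of-ratios scaling and after the GC and length correction DDX39B was higher, by 1.14 and 0.86 on the log2 scale. DDX39A had 109.7, 105.6 and 114.4 TPM in siVCPIP1 libraries, against 107.2, 102.4 and 119.1 TPM in siControl libraries. Its groups overlapped, with a log2 difference of 0.01 ± 0.12 (SE, limma adjusted p = 0.966) and of 1.37, called higher, with median-of-ratios scaling.

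DDX19A had 7.34, 7.15 and 12.9 TPM in siVCPIP1 libraries, against 20.9, 23.1 and 23.3 TPM in siControl libraries. Every siVCPIP1 library was lower, with a log2 difference of -1.25 ± 0.24 (SE, limma adjusted p = 0.00102) that was -0.02 after the GC and length correction. DDX19B had 8.52, 9.28 and 11.9 TPM in siVCPIP1 libraries, against 11.98, 13.1 and 14.9 TPM in siControl libraries. The groups lay close, and the log2 difference of -0.40 ± 0.20 was not called (limma adjusted p = 0.0847), whereas under each of the 3 scalings DDX19B was higher, by 0.86 to 1.07. DDX19A and DDX19B are near copies that also share exonic sequence with a readthrough gene, so the split of their reads is uncertain.

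Cytosolic ribosome assembly was the largest group, with 16 members. Of these, 11 were lower, 2 higher (DDX49 and DDX56) and 3 not called (DDX51, DDX54 and DHX37), against 66% lower and 15% higher among all genes. The median log2 difference was -1.33. Most of these enzymes work in the nucleolus on the precursor of the ribosomal RNAs. The balance was 7 lower and 6 higher with median-of-ratios scaling, 6 and 5 with quantile normalization, and 4 and 7 after the GC and length correction. DDX21, which couples rRNA transcription to processing, had 0.78, 0.92 and 2.77 TPM in siVCPIP1 libraries, against 31.3, 36.2 and 26.3 TPM in siControl libraries. No siVCPIP1 value came near a siControl value, and the log2 difference was -3.77 ± 0.30 (SE, limma adjusted p = 2e-05). DDX18, needed for the large subunit, had 0.31, 0.12 and 1.33 TPM in siVCPIP1 libraries, against 20.1, 21.1 and 14.9 TPM in siControl libraries. Its siVCPIP1 mean, 3.14% of the siControl mean, was the smallest share kept by any tested member, with a log2 difference of -3.70 ± 0.29 (SE, limma adjusted p = 2e-05).

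DDX50, the close paralog of DDX21, had 1.56, 1.96 and 5.24 TPM in siVCPIP1 libraries, against 19.6, 24.8 and 22.8 TPM in siControl libraries. The groups were apart, with a log2 difference of -2.69 ± 0.33 (SE, limma adjusted p = 7.65e-05). It was -0.39 after the GC and length correction, and -0.26 and no longer called with a pseudocount of 0.1 in that correction (limma adjusted p = 0.203). DDX47, which acts on the small-subunit rRNA precursor, had 11.3, 10.7 and 24.4 TPM in siVCPIP1 libraries, against 56.9, 72.0 and 80.9 TPM in siControl libraries. Replicate 3 of siVCPIP1 was the nearest to siControl, and the log2 difference was -2.19 ± 0.30 (SE, limma adjusted p = 0.000151), or -0.05 after the GC and length correction. DDX47 shares 1841 of its 5040 exonic bases with APOLD1 on the same strand. The other members called lower were DDX10, DDX24, DDX27, DDX31, DDX52, DDX55 and DHX33, with log2 differences between -2.36 for DDX10 and -0.66 for DDX31. DDX31 was higher under each of the 3 scalings, by 0.55 to 0.89, and DDX52 and DDX55 were higher after the GC and length correction, by 0.78 and 0.53.

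The largest rise was that of DDX49, a helicase of small-subunit rRNA processing (chr19:18919675-18928633, plus). DDX49 had 92.7, 95.0 and 78.2 TPM in siVCPIP1 libraries, against 47.0, 40.5 and 40.1 TPM in siControl libraries. All siVCPIP1 libraries stood above all siControl libraries, with a mean ratio of 2.08 and a log2 difference of 1.04 ± 0.15 (SE, limma adjusted p = 0.000168). DDX56, which serves large-subunit assembly (chr7:44565417-44575051, minus), had 274.6, 273.1 and 266.4 TPM in siVCPIP1 libraries, against 190.6, 173.3 and 181.2 TPM in siControl libraries. Its siVCPIP1 values lay within a narrow range above all siControl values, with a log2 difference of 0.58 ± 0.11 (SE, limma adjusted p = 0.00114). DDX56 thereby had the highest mean of all members in siVCPIP1, against the 2nd place in siControl. DDX51, DDX54 and DHX37, with means of 14.2, 58.2 and 16.3 TPM in siVCPIP1 and 12.4, 67.5 and 15.5 TPM in siControl, overlapped or differed by less than the test could call. DDX51 and DHX37 were higher under each of the 3 scalings, by 0.71 to 1.501 and by 0.35 to 1.36, and DDX54 with median-of-ratios scaling, by 1.11.

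Of the mitochondrial helicases, DDX28, an assembly factor of the mitochondrial large subunit, averaged 4.89 ± 2.84 TPM in siVCPIP1 and 8.20 ± 0.45 TPM in siControl (SD, n = 3 each). It was lower with a limma adjusted p of 0.0486, a call held in 1 of the 6 fits that left a library out and turned to higher by quantile normalization, at 0.84. DHX30, found in mitochondrial RNA granules, was not called, with 45.3 ± 6.61 TPM in siVCPIP1 and 40.2 ± 3.54 TPM in siControl, and was higher under each of the 3 scalings, by 0.50 to 1.504. Mitochondrially encoded transcripts, the RNA these enzymes act on, are not analysed here.

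Of the helicases of translation, storage and decay, 4 of 5 were lower, against 66% of all genes, and DHX34 was higher. Their median log2 difference was -2.34. The counts were the same with median-of-ratios scaling and quantile normalization, and 2 lower and 1 higher after the GC and length correction. DDX3X, which helps ribosomes through structured leaders of mRNAs, had 2.58, 2.45 and 5.52 TPM in siVCPIP1 libraries, against 34.2, 37.2 and 31.4 TPM in siControl libraries. Its groups were widely apart, with a log2 difference of -3.03 ± 0.27 (SE, limma adjusted p = 2.06e-05). DDX6, the core helicase of P-bodies, averaged 1.45 ± 1.01 TPM in siVCPIP1 and 14.9 ± 1.46 TPM in siControl (SD, n = 3 each). DHX29, a scanning factor, and DHX36, which unwinds G-quadruplexes, fell below 1 TPM in every siVCPIP1 library, with siControl means of 5.91 and 5.98 TPM. DHX29 and DHX36 were not called after the GC and length correction, at -0.16 and -0.23. Both were lower with a pseudocount of 0.1 in that correction, at -0.80 and -0.73. DHX34, a factor of nonsense-mediated decay (chr19:47349281-47382704, plus), had 16.6, 13.8 and 15.6 TPM in siVCPIP1 libraries, against 10.4, 9.25 and 7.93 TPM in siControl libraries. The rise was seen in every siVCPIP1 library, with a log2 difference of 0.68 ± 0.18 (SE, limma adjusted p = 0.00765).

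The helicases of transcription and small RNA processing were all lower, 5 of 5, in TPM as deposited and under each of the 3 scalings, with a median log2 difference of -2.85, where 66% of all genes were lower as deposited. DDX5 and DDX17 are paralogs that serve as transcription coregulators and as cofactors of the Microprocessor, which cuts microRNA precursors. DDX5 had 4.49, 4.20 and 15.3 TPM in siVCPIP1 libraries, against 93.2, 114.0 and 93.5 TPM in siControl libraries. It ranked 25th among the members in siVCPIP1 and 4th in siControl, with a log2 difference of -3.70 ± 0.40 (SE, limma adjusted p = 3.98e-05). DDX17 had 5.15, 4.47 and 14.5 TPM in siVCPIP1 libraries, against 56.5, 62.7 and 52.4 TPM in siControl libraries. The groups were well apart, with a log2 difference of -2.85 ± 0.36 (SE, limma adjusted p = 9.3e-05). The transcript used for DDX17 holds its 2190 coding bases only, so its GC content, its length and its corrected values are uncertain.

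DHX9, which unwinds RNA hairpins and RNA-DNA hybrids, had 1.20, 1.42 and 4.56 TPM in siVCPIP1 libraries, against 37.7, 48.4 and 42.8 TPM in siControl libraries. Its siVCPIP1 mean was 5.57% of the siControl mean, with a log2 difference of -3.82 ± 0.34 (SE, limma adjusted p = 2.11e-05) and of -1.82 after the GC and length correction. DDX1, part of the tRNA ligase complex, had 8.39, 8.12 and 25.3 TPM in siVCPIP1 libraries, against 87.4, 102.3 and 88.0 TPM in siControl libraries. Every siVCPIP1 library was lower, with a log2 difference of -2.83 ± 0.37 (SE, limma adjusted p = 0.000119). After the GC and length correction it was -0.69, and with a pseudocount of 0.1 in that correction -0.30 and no longer called (limma adjusted p = 0.148). DDX20, the Gemin3 subunit of the SMN complex, averaged 0.70 ± 0.45 TPM in siVCPIP1 and 6.54 ± 0.49 TPM in siControl (SD, n = 3 each).

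Of the antiviral helicases, 3 of 4 were lower, against 66% of all genes, and DHX58 was not called, with a median log2 difference of -1.45. The counts were 2 lower and 1 higher with median-of-ratios scaling, 1 and 1 with quantile normalization, and 1 and 2 after the GC and length correction. DDX60, an interferon-induced helicase, had 0.55, 0.46 and 1.72 TPM in siVCPIP1 libraries, against 20.0, 23.7 and 12.2 TPM in siControl libraries. The siControl libraries spread widely but stayed above all siVCPIP1 libraries, with a log2 difference of -3.37 ± 0.32 (SE, limma adjusted p = 2.37e-05). DDX60L, its paralog, had 2.51, 2.08 and 4.49 TPM in siVCPIP1 libraries, against 11.5, 13.3 and 11.5 TPM in siControl libraries. It was lower by a log2 difference of -1.74 ± 0.25 (SE, limma adjusted p = 0.00018), and higher, at 0.34, after the GC and length correction. DDX58 encodes RIG-I, the sensor of viral RNA ends, and averaged 15.9 ± 4.71 TPM in siVCPIP1 and 36.1 ± 3.08 TPM in siControl (SD, n = 3 each). DDX58 likewise was lower as deposited, at -1.16, and higher after the correction, at 1.03. DHX58, the regulator LGP2, had means of 25.8 TPM in siVCPIP1 and 32.2 TPM in siControl, and was higher with median-of-ratios scaling and quantile normalization, by 1.02 and 0.60.

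DDX11, a DNA helicase of sister chromatid cohesion that carries a DDX symbol, had 78.6, 66.5 and 85.5 TPM in siVCPIP1 libraries, against 80.3, 72.8 and 76.0 TPM in siControl libraries. The groups overlapped, with a log2 difference of 0.00 ± 0.14 (SE, limma adjusted p = 0.986), although under each of the 3 scalings it was called higher, by 0.43 to 1.36. DDX11 has near-identical copies in the genome, so its reads may be split. The less characterised DDX59, DHX32, DHX40 and DHX57 were all lower, 4 of 4, against 66% of all genes. Their log2 differences were -2.41, -2.07, -2.26 and -1.36. After the GC and length correction none of these 4 was lower and DHX57 was higher, at 0.58. With a pseudocount of 0.1 in that correction DDX59 was lower, at -1.23 (limma adjusted p = 0.00325), and DHX57 was higher, at 0.57. The germ cell helicases DDX4, DDX43 and DDX53 were not analysed here.

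The make-up of the helicase pool differed between the groups. Summed over the members, TPM was 1263, 1198 and 1501 in siVCPIP1 libraries, against 1953, 2043 and 2020 in siControl libraries. DDX39B, DDX56, DDX41 and DDX39A together held 57.5% ± 4.09 of the members' TPM in siVCPIP1 and 34.4% ± 2.34 in siControl (SD, n = 3 each). These 4 had the highest siVCPIP1 means, a choice that favours siVCPIP1. The 5 most abundant members of each library, taken library by library, held 64.5% ± 5.23 in siVCPIP1 and 39.7% ± 1.35 in siControl. Members with at least 10 TPM numbered 18, 18 and 25 in siVCPIP1 libraries and 39, 38 and 39 in siControl libraries. The 5 most abundant siVCPIP1 members by mean were DDX56, DDX39B, DDX41, DDX39A and DDX49, and in siControl they were DDX39B, DDX56, DDX39A, DDX5 and DDX1. Neighbours in that order were close: DDX39B and DDX56 overlapped in siVCPIP1 libraries, as did DDX39A and DDX41.

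**Figure D3:**
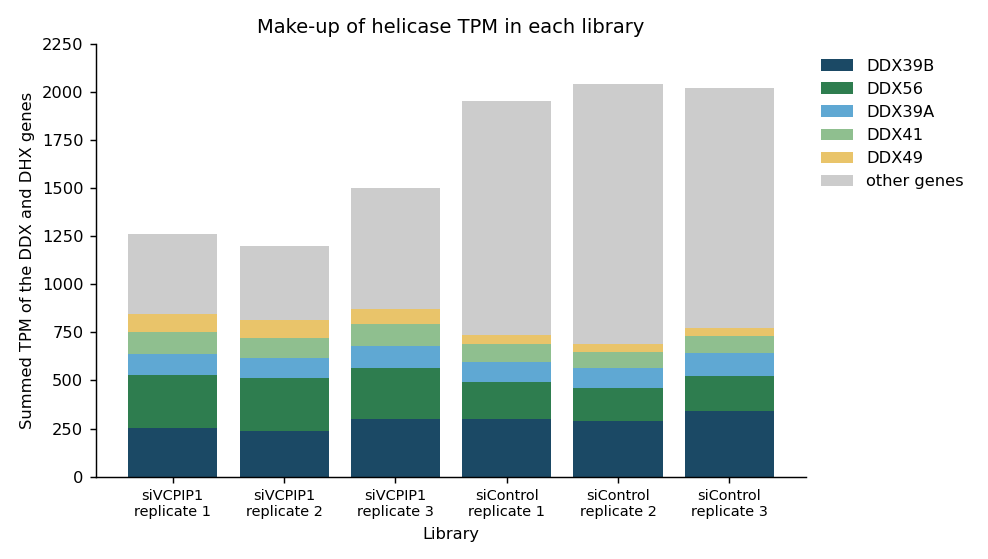
Summed TPM of the DDX and DHX genes in each library, stacked by gene, siVCPIP1 libraries left of siControl libraries. The blocks for DDX56, DDX41 and DDX49 are taller in siVCPIP1 and those for DDX39B and DDX39A overlap in height, while the grey block for all other members is shorter, and the sums lie at 1198 to 1501 in siVCPIP1 against 1953 to 2043 in siControl.

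Members lower in siVCPIP1 had transcripts of lower GC content. The median transcript GC content was 43.9% over the 36 lower members, 57.9% over the 10 not called and 60.2% over the 4 higher ones. Across the 50 tested members, transcript GC content and log2 difference had a Pearson r of 0.795 and a Spearman rho of 0.756, against 0.717 and 0.736 across 10710 genes. These points share the same 6 libraries, so the correlations are descriptions. For the GC content at the last base of the codons, r was 0.844 across 49 members and 0.636 across all genes, and for transcript length it was -0.190 across 50 members and -0.301 across all genes. The siControl level, as log2 TPM, had an r of 0.109.

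Below 45% transcript GC content all 23 members were lower, with a median log2 difference of -2.41, and so were 97.4% of all such genes, with 0.288% higher and a median of -2.13. Between 45% and 55%, 10 of 13 members were lower and none higher, against 78.1% and 5.16% of all genes. At 55% or more, 3 of 14 members were lower and 4 higher, against 26.9% and 37.1% of all genes. The 3 lower members in this class were DHX38, DDX28 and DHX16. The calls of DDX28 and DHX16 were lost in 5 of the 6 fits that left out 1 library, and both were higher with quantile normalization. DHX38 was not called with median-of-ratios scaling or quantile normalization. These GC classes were set after the data had been seen. After the correction for GC content and length, 12 of the 23 members under 45% were lower and 4 higher. The shares of all genes in this class after the correction were not computed. Over all classes together they were 31.8% lower and 37.2% higher.

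The base composition of the promoters did not follow the same order. RefSeq windows around the gene start (GRCh38.p14) were found for 45 of the tested members, 59 windows in all, and were averaged per gene. No window was found for DDX49, the member with the largest rise, or for DDX18, DDX52, DHX33 and DHX58. The GC content of the windows ran from 44.3% to 78.0%, with medians of 61.0% over 33 lower, 59.8% over 9 not called and 63.7% over only 3 higher members. Promoter GC content and log2 difference had a Pearson r of 3.7e-05 and a Spearman rho of -0.06 across these 45 genes, whereas their transcript GC content had a Pearson r of 0.796.

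**Figure D4:**
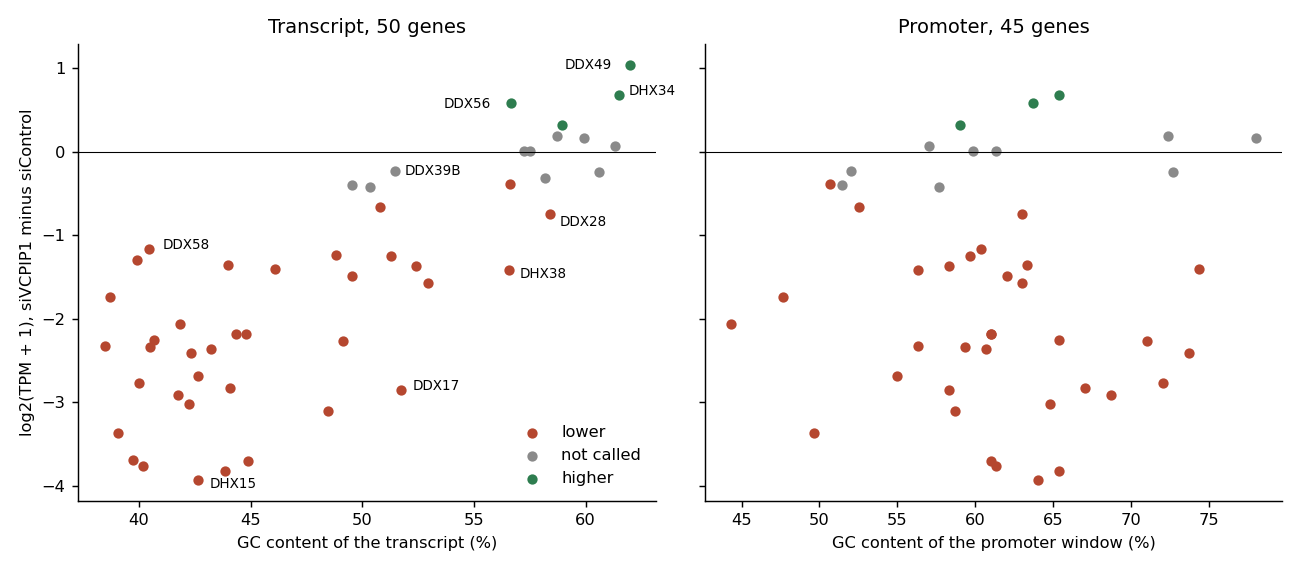
Difference in log2(TPM + 1), siVCPIP1 minus siControl, against the GC content of the transcript (left, 50 genes) and of the promoter window (right, 45 genes), with 1 point per helicase gene coloured by its call. On the left the differences climb with GC content, while on the right lower and higher genes lie side by side.

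Close paralogs offered a comparison within families. For each of 5 pairs the log2 ratio of (TPM + 1) was taken in every library and tested by a two-sided exact permutation test, whose smallest p with 3 against 3 libraries is 0.1. All 5 pairs reached that p, 0.1 also after adjustment over the pairs, so none could pass 0.05. DDX60 over DDX60L moved the most, with a log2 ratio of -1.09 ± 0.08 in siVCPIP1 and 0.54 ± 0.40 in siControl (SD, n = 3 each). DDX21 over DDX50 stood at -0.63 ± 0.10 in siVCPIP1 and 0.46 ± 0.23 in siControl. In both pairs the more abundant siControl partner became the less abundant one, in all 3 siVCPIP1 libraries. The transcripts of these pairs differ little in GC content, at 39.1% for DDX60 and 38.7% for DDX60L, and at 40.2% for DDX21 and 42.6% for DDX50. Their lengths are 6071 and 6781 bases for DDX60 and DDX60L, and 4711 and 2538 bases for DDX21 and DDX50. The part of GC content or length in the ratios was not tested.

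DDX5 over DDX17 stood at -0.05 ± 0.12 in siVCPIP1 and 0.80 ± 0.07 in siControl. DDX19A over DDX19B stood at -0.14 ± 0.23 in siVCPIP1 and 0.71 ± 0.09 in siControl, with transcript GC contents of 51.3% and 49.6%. DDX39A over DDX39B differed the least, at -1.25 ± 0.11 in siVCPIP1 and -1.49 ± 0.02 in siControl. The groups did not overlap in any of the 5 pairs. Taken singly, 86% of all genes tested did not overlap, and ratios of other gene pairs were not examined. The differences of DDX5 over DDX17 and of DDX39A over DDX39B turned round after the GC and length correction, to 0.17 and -0.89. For DDX17 that correction used a transcript of coding bases only, so the corrected ratio of DDX5 over DDX17 is uncertain. Reads that fit both members of a pair may have been split by the counting.

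**Figure D5:**
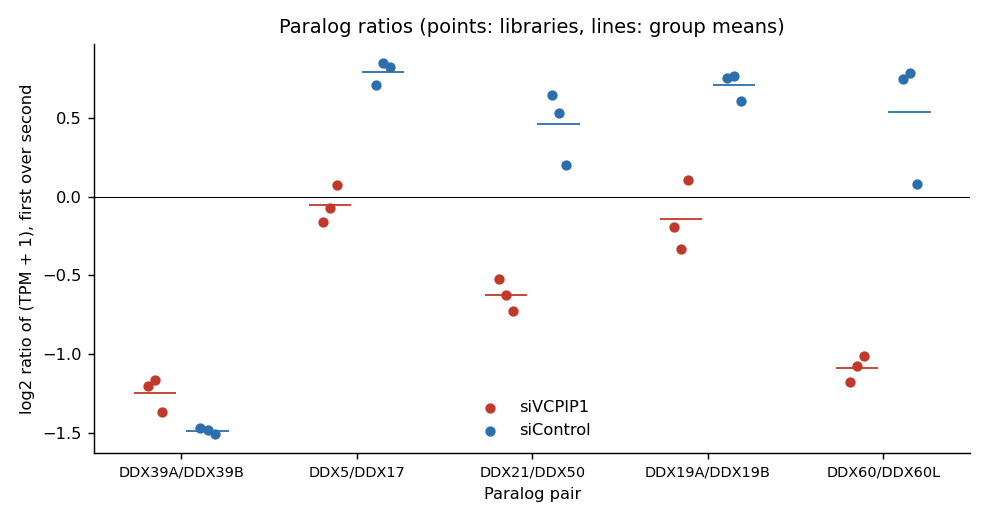
Log2 ratio of (TPM + 1), first over second gene, for 5 paralog pairs, with 1 point per library and a line at each group mean, siVCPIP1 in red left of siControl in blue. The ratios of DDX60 to DDX60L and of DDX21 to DDX50 lie below 0 in all siVCPIP1 libraries and above 0 in all siControl libraries.

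In each list of partner genes falls outnumbered rises in TPM as deposited, as they did among all genes tested (66% lower and 15% higher). For the counts under other scalings, the shares among all genes were 42.7% lower and 42.3% higher with median-of-ratios scaling, 38.8% and 42.2% with quantile normalization, and 31.8% and 37.2% after the GC and length correction. RNA helicases with other symbols were lower in 16 of 18 tested and higher in none, and SKIV2L and MOV10 were not called. EIF4A2, an initiation factor helicase, had 12.3, 9.01 and 45.7 TPM in siVCPIP1 libraries, against 234.5, 276.2 and 253.8 TPM in siControl libraries, a log2 difference of -3.79 ± 0.48 (SE, limma adjusted p = 9.94e-05). MTREX, the exosome helicase, and IFIH1, the RNA sensor MDA5, had differences of -3.17 and -2.995. With median-of-ratios scaling 9 of the 18 were lower and 4 higher, with quantile normalization 11 and 4, and after the GC and length correction 4 and 5.

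The G-patch proteins, several of which switch on DEAH-box helicases such as DHX15, were lower in 16 of 24, higher in 4 and not called in 4. SON, a G-patch protein of nuclear speckles, averaged 3.42 ± 2.32 TPM in siVCPIP1 and 45.3 ± 5.64 TPM in siControl (SD, n = 3 each). RBM17 and CHERP, partners in the U2 particle, had log2 differences of -2.58 and -2.09. In the GC and length correction with a pseudocount of 0.1 RBM17 was no longer called, at -0.10 (limma adjusted p = 0.587). GPANK1, GPATCH3, RBM10 and ZGPAT were higher, by 0.83, 0.47, 0.36 and 0.47. The call of ZGPAT was lost after the GC and length correction, at 0.02. The counts were 10 lower and 8 higher with median-of-ratios scaling, 8 and 8 with quantile normalization, and 5 and 8 after the correction.

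Among TREX and export factors that work with DDX39B and DDX19B, 14 of 17 were lower and THOC6 was higher, while THOC5 and NUP214 were not called. THOC7, THOC2 and ZC3H11A had log2 differences of -3.23, -2.54 and -3.17, and THOC6, a subunit of the same THO complex, had 121.8 ± 10.5 TPM in siVCPIP1 and 75.0 ± 7.06 TPM in siControl (SD, n = 3 each). THOC2 lost its call in the GC and length correction with a pseudocount of 0.1, at -0.36 (limma adjusted p = 0.0826). The counts were 7 lower and 8 higher with median-of-ratios scaling, 9 and 4 with quantile normalization, and 7 and 7 after the correction. Storage and decapping partners of DDX6 were lower in 16 of 19, with EDC3 higher, and CNOT3 and ATXN2L not called. The counts were 12 lower and 4 higher with median-of-ratios scaling, 13 and 4 with quantile normalization, and 10 and 3 after the correction. YBX1, a major mRNA-binding protein, averaged 34.4 ± 30.8 TPM in siVCPIP1 and 436.2 ± 40.1 TPM in siControl, with siVCPIP1 replicate 3 at 69.9 TPM. CNOT7 and DCP1A had differences of -2.85 and -2.84. In the correction with a pseudocount of 0.1 CNOT7 was no longer called, at 0.16 (limma adjusted p = 0.449), and DCP1A was lower, at -1.67.

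The tRNA ligase and SMN complexes, which hold DDX1 and DDX20, were lower in 13 of 15, with GEMIN7 higher at 0.74 and GEMIN8 not called. STRAP, SMN1 and GEMIN2 had differences of -3.44, -3.32 and -2.81, and SMN1 reads cannot be told apart from those of its near-identical copy. The counts were 9 lower and 2 higher with median-of-ratios scaling, 8 and 4 with quantile normalization, and 5 and 7 after the correction, where GEMIN2 lost its call at -0.46. Both genes of the Microprocessor, DROSHA and DGCR8, were lower, at -2.37 and -1.12. DROSHA was lower under each of the 3 scalings as well, whereas DGCR8 was higher with quantile normalization, at 0.50, and not called under the other two. In RIG-I-like receptor signalling 12 of 19 were lower, 4 higher and 3 not called. IRF7, a transcription factor that interferon induces, had 121.4, 138.0 and 87.4 TPM in siVCPIP1 libraries, against 48.7, 37.7 and 28.2 TPM in siControl libraries. IRF7 was thus higher in every siVCPIP1 library, with a log2 difference of 1.58 ± 0.23 (SE, limma adjusted p = 0.000248), as were IRF3, PPP1CA and NLRX1, by 0.82, 0.60 and 0.66. PPP1CC and ZC3HAV1 were lower, at -3.38 and -1.64. The call of ZC3HAV1 was lost with median-of-ratios scaling, at -0.33, and after the GC and length correction, at 0.15, and turned to higher, at 0.72, in the correction with a pseudocount of 0.1. The counts were 6 lower and 7 higher with median-of-ratios scaling, 4 and 9 with quantile normalization, and 4 and 11 after the correction.

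Overlapping genes limit some of these values, because no source used here gives the strand setting of the counting. In GENCODE 29, 28 of the members share exonic bases with another gene, and 15 share them with a protein-coding gene on the opposite strand. DDX39B shares 2079 of its 7007 exonic bases with a readthrough gene on the same strand, and DDX5 shares 506 of 7388 with CEP95 on the opposite strand.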

How the data were processed

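The deposited table holds TPM per gene symbol for 6 libraries, computed by the authors, per the file headers. Per the submitters' processing notes, the genome build was GRCh38.p13. Not given in the sources used here were the aligner, counting tool, annotation, strand setting, depth and siRNA sequences. All 6 columns were matched to samples by name and used as deposited.

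For genes averaging 1 TPM or more, log2(TPM + 1) was compared by limma 3.58.1 (R 4.3.3) with moderated, trended variances and no covariate, two-sided, and adjusted by Benjamini-Hochberg over 10966 genes. Alternatives were a pseudocount of 0.1, no filter, a minimum of 5 TPM, median-of-ratios scaling, quantile normalization, removal of each library's spline trend on transcript GC content and length (GENCODE 29, 5 and 3 degrees of freedom), the same with a pseudocount of 0.1, a replicate block, and each library left out. The fits were tested on simulated data. Members, role lists, partner lists and tests were chosen with earlier results of these data known. Members named library by library were the 8 with the highest siControl mean, up to 8 with the largest called fall and 8 with the largest called rise (mean of at least 5 TPM, groups not overlapping) and those of 5 paralog pairs. Up to 3 called genes per partner list were named by the size of their change, and genes making up counts of 5 or fewer were named after their values were seen.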

Additional observations from a re-analysis of the deposited data

How the results depend on the processing

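For VCPIP1 and the named members, 157 of 183 log2 differences under other settings kept their direction and their side of the threshold, as did 125 of 138 with 1 library left out. Among the 183, every change came from median-of-ratios scaling, quantile normalization or a corrected fit. Leaving out the filter, the 5 TPM minimum and the replicate block keep the log2 difference itself the same by design. Across all genes, lower calls numbered 4679 with a minimum of 5 TPM (7736 genes tested in place of 10966), 4677 with median-of-ratios scaling, 4258 with quantile normalization, 3405 after the GC and length correction and 3323 after that correction with a pseudocount of 0.1, which was chosen after seeing the data. Higher calls under the last 4 numbered 4641, 4625, 3982 and 3856. For the members the last 2 left 19 and 18 lower calls, and the last 4 gave 16, 14, 17 and 17 higher calls with medians of -0.39, -0.25, -0.0603 and 0.0508. The paralog difference changed sign after the correction for DDX39A over DDX39B (-0.89, and -1.05 with a pseudocount of 0.1) and for DDX5 over DDX17 (0.17 and 0.42). The latter rests on a DDX17 transcript of coding bases only.

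VCPIP1 changed sign after the correction (0.27) but not in the correction at 0.1 (-0.55, still lower), DDX47 with the 0.1 pseudocount (0.26), and DDX60L in both corrected fits (0.34 and 0.98). With median-of-ratios scaling, quantile normalization, the correction and the correction at 0.1, DDX19B stood at 0.86, 1.002, 1.07 and 1.34. DDX19A stood at 0.0262 and 0.0505 under the first pair of scalings and at 0.12 in the correction at 0.1. DDX39B stood at 1.14 with median-of-ratios scaling, 0.86 after the correction and 1.03 at 0.1, and DDX39A at -0.0274 and -0.0160 in the corrected fits. Leaving out 1 library at a time moved DDX11 between -0.0773 and 0.102 and DDX39A between -0.0412 and 0.0669. The cause of these changes was not tested.

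Same-numbered libraries of both groups correlated in their deviations from the group means at 0.53, -0.27 and 0.16. With 3 libraries per group such values cannot settle pairing, so whether the numbers pair the samples is unknown. The replicate block gave 34 lower and 4 higher members. Each replicate number occurs once per group, so the block cannot change a difference of group means, and the paralog differences stayed the same by design. Leaving out 1 library gave 33 to 41 lower and 3 to 4 higher members. Read depth is unknown, so detection limits cannot be stated.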
